A study of Mus musculus with 20 samples.

Results

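The response to stimulation was followed in regulatory T cells (Tregs) of the Rheb KO genotype, as the difference between 3 arrays of stimulated and 3 arrays of unstimulated Rheb KO cells. These 6 of the 20 arrays in the series were chosen by their titles, and all 19505 genes with a named probe set were compared on them. Each array held total RNA of CD4+CD25+ Tregs from mice on a C57BL/6 background. The cells had been enriched on CD4 beads, sorted and lysed, and the RNA was amplified and biotin-labelled for Clariom S arrays. The genotype is given as Rheb1/2 KO, where Rheb2 is the product of Rhebl1, and the 6 WT arrays of the same experiment, 3 unstimulated and 3 stimulated, served as the reference response. Neither the means of deletion, nor the cells it affects, the age of the mice, the stimulus or its length in these groups is stated in the sources used here. Separate mice for the 3 arrays of a group are not stated either, and the p-values then reflect only how far these samples spread, which may be technical.

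The treatment field goes against the titles on 6 arrays of this experiment. It calls the 3 unstimulated KO arrays stimulated and the 3 stimulated WT arrays unstimulated, while the source names and the series' design text match the titles. Read by that field, all 6 KO arrays would be stimulated and nothing could be compared, so every result here rests on the titles.

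Tregs are CD4 T cells that hold other immune cells in check, and on antigen receptor and interleukin 2 signals they turn from a resting into an effector state. Rheb is a small GTPase on the lysosome surface that switches on the kinase complex mTORC1 when growth signals arrive, and mTORC1 raises protein, lipid and nucleotide synthesis. The question the comparison addresses is which parts of the Treg activation programme change in cells of the KO genotype.

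The cells carried the markers of T cells on all 6 KO arrays. Signals are on the log2 scale. Cd3e read between 11.81 and 12.21, Cd5 between 11.63 and 12.13 and Cd4 between 10.25 and 10.97, against array medians of 7.69 to 7.74. Of the Treg markers, Tnfrsf18 (12.18 to 12.81), Ctla4 (11.58 to 12.06) and Ikzf2 (11.03 to 11.37) were bright. Il2ra, which encodes the CD25 used for the sort, read only 6.65 to 7.58 without and 7.70 to 7.96 with stimulation, and Foxp3 was not analysed here. On unstimulated arrays 1 and 2 Il2ra lay below the negative control median of the array, so its change is of uncertain size. Rhebl1 read 4.99 to 5.30, below the negative controls on all 6 arrays. Rheb itself read 8.81, 8.82 and 9.05 on the unstimulated arrays and 9.37, 9.47 and 9.33 on the stimulated arrays. In WT it read 9.83, 9.34 and 10.14 on the unstimulated and 10.52, 10.18 and 10.27 on the stimulated arrays. In each state the KO arrays lay below every WT array, yet above the array medians. The KO change of 0.50 ± 0.17 log2 was not called (limma, adjusted p = 0.0851), and the place of the probes relative to the deleted part is not stated in the sources used here.

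Markers of other cell types moved with the state. The mean of 16 macrophage and monocyte markers lay between 7.64 and 7.77 on the unstimulated KO arrays and between 6.57 and 6.61 on the stimulated ones, and 11 of the 16 were called lower. For 13 dendritic cell markers the means were 7.79 to 7.96 and 7.30 to 7.37, for 12 natural killer (NK) cell markers 7.11 to 7.40 and 6.63 to 6.90, and for 12 B cell markers 7.21 to 7.36 and 7.03 to 7.09. Markers below the negative control median on all 6 arrays were Flt3 and Xcr1 of dendritic cells, Klrb1c of NK cells, Il2 of conventional CD4 T cells, and S100a8 and S100a9 of granulocytes. In such bulk samples, fewer cells of a type and less RNA per cell cannot be told apart. The part of these other cells in the results below was not tested.

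**Figure D1:**
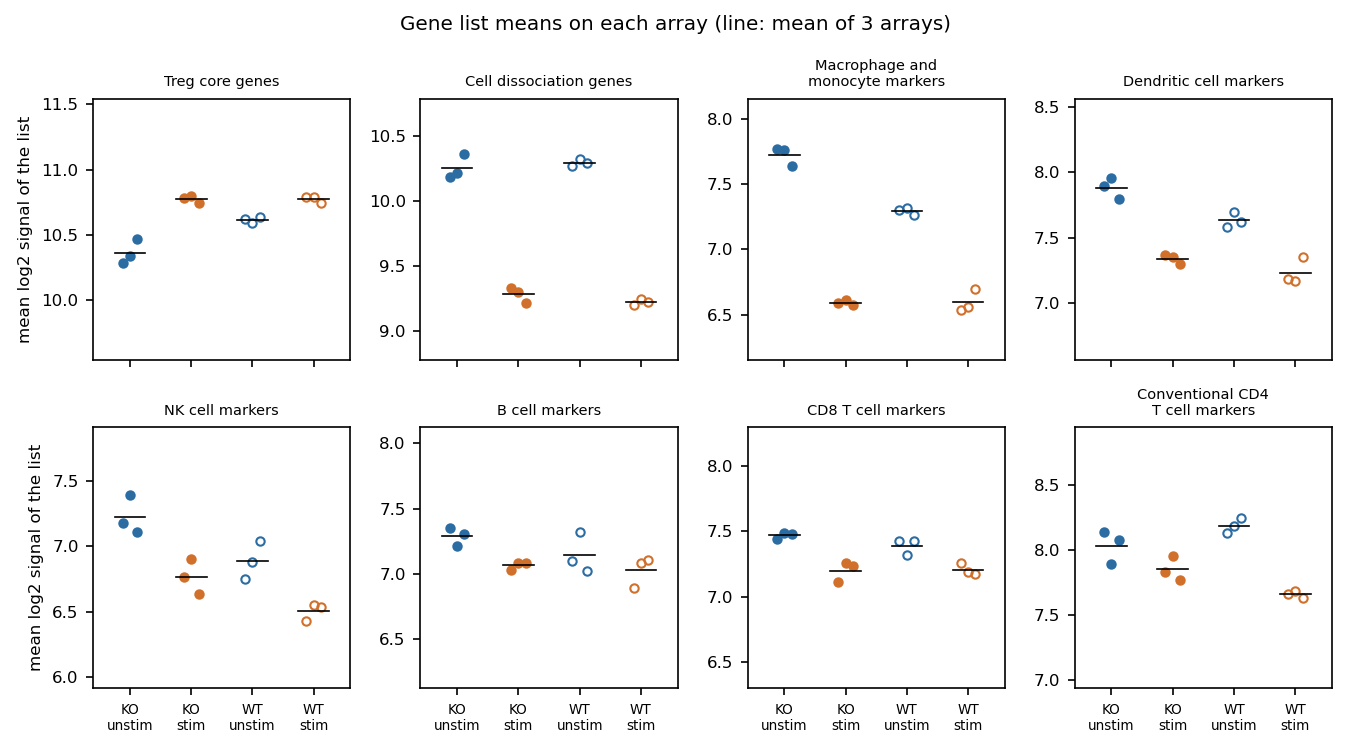
Mean log2 signal of 8 gene lists on each of the 12 arrays of the experiment (filled symbols, Rheb KO; open symbols, WT; blue, unstimulated; orange, stimulated; line, mean of 3 arrays; every panel spans the same range of log2 units). The Treg core mean of KO lay between 10.28 and 10.47 without stimulation and between 10.75 and 10.80 with it, while the macrophage and cell dissociation means were lower on every stimulated KO array than on every unstimulated one.

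Stimulated and unstimulated KO arrays were clearly separate. Pairs of arrays within a state correlated at 0.990 to 0.993 over all genes and pairs between states at 0.980 to 0.982. With a Benjamini-Hochberg adjusted p below 0.05 over all genes (limma), 1901 of 19505 genes (9.75%) were called, 888 higher (4.55%) and 1013 lower (5.19%). At least 2-fold changes were called for 311 genes (1.59%), 123 higher (0.631%) and 188 lower (0.964%). The median change over all genes was -0.01 log2. A fit with all 20 arrays of the series called 920. Among the genes named below as changed, that fit ended the calls of Ctla4, Egr1, Tnfrsf18, Lrrc32, Il7r, Nr4a3, Cd28, Tgfbr2, Cdk1, Kif23, Prkcq, Jak2, Tap1, Stat5b, Skil, Dtx3, Insig1, Acsl4, Ubtf, Eef2, Hspa5, Pcna, Rbl2, Stat2, Cldn10, Nsdhl and Tmem26.

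The largest rises were those of cytokine, chemokine and interferon-induced genes. Il3, which encodes a growth factor for blood cells and mast cells, read 4.47, 4.60 and 4.22 on the unstimulated arrays and 7.22, 8.96 and 7.52 on the stimulated arrays. All 3 unstimulated values were under the negative control median of their array, and stimulated array 2 was the highest, so that the rise of 3.47 ± 0.35 log2 (SE, n = 3 arrays a state; adjusted p = 3.67e-05) is of uncertain size. Il4, the type 2 helper cytokine, read 6.08, 5.85 and 5.94 on the unstimulated arrays and 9.38, 9.12 and 8.98 on the stimulated arrays. The states were far apart with little spread inside each, a rise of 3.20 ± 0.16 (adjusted p = 9.58e-08), again from below the negative control median. Zfp948, a zinc finger gene, read 6.91, 7.32 and 6.57 on the unstimulated arrays and 9.95, 9.94 and 10.24 on the stimulated arrays and rose by 3.11 ± 0.18 (adjusted p = 5.33e-07). With genes known only by a provisional symbol such as Gm or Rik left out, the 12 largest rises also held the chain elongase Elovl6 (2.30 ± 0.21), the receptor partner Ramp3 (2.21 ± 0.18), the palmitoyltransferase Zdhhc23 (2.16 ± 0.10), the actin-binding Nexn (2.10 ± 0.27), Fsd1l (2.04 ± 0.21) and Mpzl1 (2.01 ± 0.25). Nexn and Fsd1l also rose from below the negative control median, so their rises are of uncertain size.

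The largest falls were those of immediate early genes, of macrophage markers and of a few lymphocyte genes. Fosb, a subunit of the AP-1 transcription factor, read 11.71, 11.80 and 12.08 on the unstimulated arrays and 8.89, 8.93 and 8.89 on the stimulated arrays. The 3 stimulated values lay within 0.05 of each other and far below every unstimulated one, a change of -2.96 ± 0.11 log2 (adjusted p = 1.82e-08). Dtx1, a ubiquitin ligase of the Notch pathway linked to T cell anergy, read 10.08, 10.28 and 10.49 on the unstimulated arrays and 8.03, 7.84 and 7.99 on the stimulated arrays (-2.33 ± 0.15, adjusted p = 1.08e-06). Sit1, an adaptor that dampens antigen receptor signals, read 10.48, 10.50 and 10.76 on the unstimulated arrays and 8.39, 8.42 and 8.17 on the stimulated arrays (-2.25 ± 0.16, adjusted p = 3.74e-06). Both genes stayed above the array median in each state. The 12 largest rises and 12 largest falls were drawn only from genes whose states did not overlap. Of all genes, 13.5% were higher and 14.4% lower without overlap. Hpgd, the enzyme that breaks down prostaglandin E2 (-2.19 ± 0.33), and Gla, a lysosomal galactosidase (-2.43 ± 0.32), dropped below the negative control median, as did the macrophage genes Aif1 (-2.74 ± 0.17), C1qa (-2.30 ± 0.19), Mrc1 (-2.25 ± 0.19) and Csf1r (-2.16 ± 0.19).

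**Figure D2:**
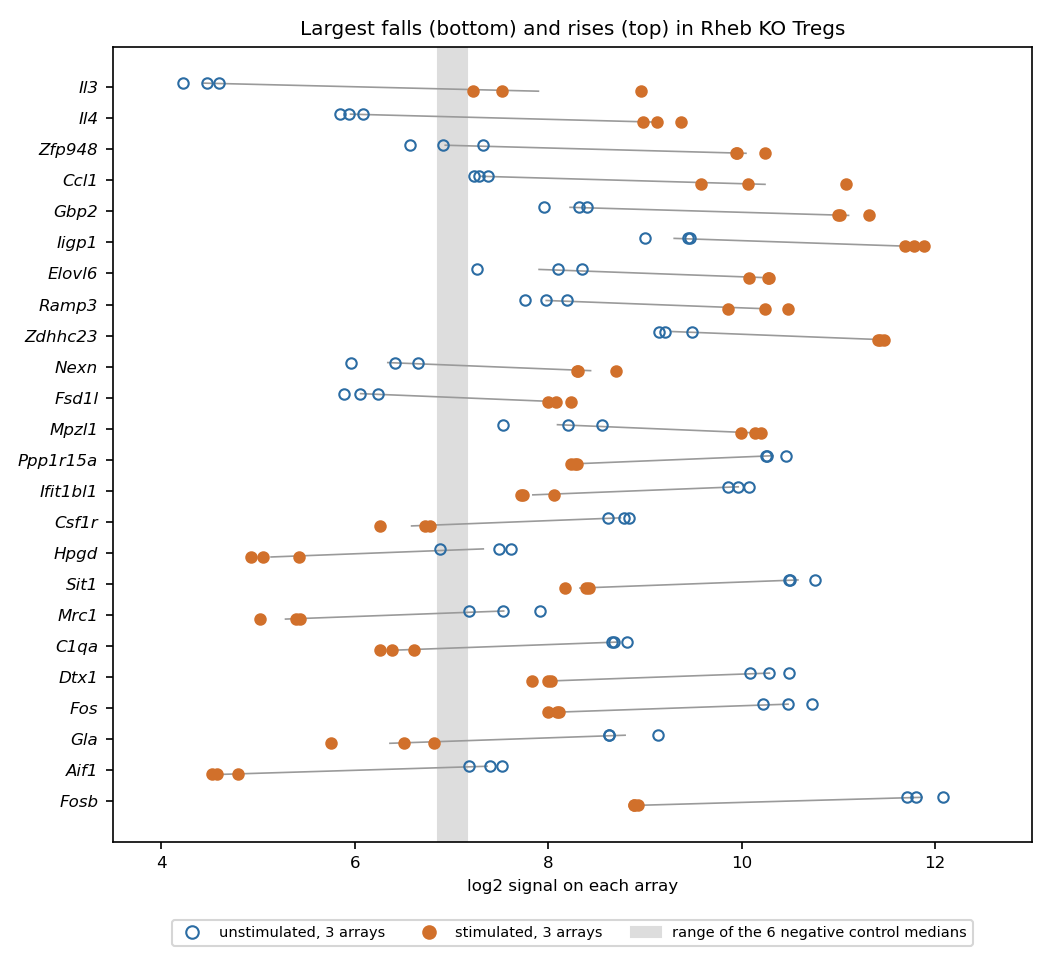
Log2 signal on each Rheb KO array for the 12 largest called rises and 12 largest called falls among named genes whose states do not overlap (open blue, 3 unstimulated arrays; orange, 3 stimulated arrays; grey line, between the means; grey band, range of the negative control medians of the 6 arrays). Il3, Il4, Nexn and Fsd1l start left of the band, and the stimulated values of Aif1, Mrc1, Hpgd, C1qa, Csf1r and Gla end left of it.

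Of 22 inflammatory cytokine and growth factor genes, 2 rose and 4 fell, with a median of -0.01. The risers were Il3 and its chromosomal neighbour Csf2, a growth factor for myeloid cells. Csf2 read 6.95, 6.73 and 6.69 on the unstimulated arrays and 7.97, 8.23 and 7.87 on the stimulated arrays, a rise of 1.23 ± 0.12 (adjusted p = 1.91e-05), and the states were well apart. Unstimulated arrays 2 and 3 lay below their negative control medians of 6.97 and 7.03, so the size of the rise is uncertain. Il1b, an inflammatory cytokine made mainly by myeloid cells, read 8.22, 9.08 and 8.20 on the unstimulated arrays and 6.87, 7.09 and 6.01 on the stimulated arrays (-1.84 ± 0.28, adjusted p = 0.000829). Il18, another cytokine of myeloid cells, fell too (-1.87 ± 0.33), and in the same arrays 11 of 16 macrophage markers fell. Without unstimulated KO array 3 or stimulated KO array 3 the falls in this list numbered 2. Ifng read 7.83, 8.25 and 8.32 on the unstimulated arrays and 8.48, 9.80 and 9.12 on the stimulated arrays and was not called (1.00 ± 0.34, adjusted p = 0.085).

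Among 22 chemokine ligands 3 rose and none fell (median 0.07; without stimulated KO array 1, 6 rose and 1 fell, and 1 fell without unstimulated KO array 2 or 3). The share called was 13.6%, against 9.75% of all genes. Ccl1, the ligand of Ccr8, read 7.23, 7.38 and 7.28 on the unstimulated arrays and 9.58, 11.08 and 10.06 on the stimulated arrays, with stimulated array 2 again the highest, and rose by 2.94 ± 0.32 (adjusted p = 5.31e-05). Cxcl9, a chemokine that interferon-gamma induces, read 6.83, 6.61 and 6.26 on the unstimulated arrays and 7.24, 8.38 and 7.65 on the stimulated arrays (1.19 ± 0.24, adjusted p = 0.00579). Its unstimulated values were all below the negative control median. Ccl22, which draws Ccr4-bearing cells, rose by 0.62 ± 0.12. Among 17 genes of the type 2 programme and Il10, 5 rose and 1 fell (median 0.08), led by Il4 and by Irf4, a factor needed by effector Tregs (1.24 ± 0.12). Il10 (0.28), Il13 (0.24) and Il5 (0.04) of that list were not called (limma, adjusted p = 0.521, 0.228 and 0.962). The rises there numbered 3 without unstimulated KO array 2, unstimulated KO array 3 or stimulated KO array 2. Its falls numbered 2 without unstimulated KO array 1, and 0 without unstimulated KO array 3 or stimulated KO array 2 or 3.

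The interferon-induced GTPases, proteins of the Gbp and Irg families that attack vacuoles of intracellular microbes, were mostly higher. Of 12 measured, 10 rose and none fell, with a median of 1.11. Gbp2 read 8.32, 7.96 and 8.40 on the unstimulated arrays and 11.01, 10.99 and 11.31 on the stimulated arrays and rose by 2.88 ± 0.14 (adjusted p = 9.58e-08). Iigp1 read 9.44 and 9.47 on unstimulated arrays 1 and 3, less on array 2, and 11.69, 11.78 and 11.88 on the stimulated arrays (2.48 ± 0.13, adjusted p = 1.61e-07). Igtp read 9.94, 9.74 and 10.08 on the unstimulated arrays and 11.43, 11.46 and 11.43 on the stimulated arrays (1.52 ± 0.12, adjusted p = 4.38e-06). In each of these genes the stimulated arrays lay close together and above every unstimulated array. Smaller rises were those of Irgm2 (1.30), Gbp3 (1.20), Gbp7 (1.12), Irgm1 (1.101), Tgtp2 (0.94) and Gbp4 (0.75), the last from an already bright 10.96 to 11.10. Several of these genes have close copies that the probes may not tell apart.

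Type I interferon-stimulated genes, mostly antiviral effectors, fell more often than they rose. Of 39 measured, 20 fell and 3 rose (median -0.46). Ifit1bl1, of the Ifit family that binds foreign RNA, read 10.08, 9.96 and 9.86 on the unstimulated arrays and 8.06, 7.72 and 7.74 on the stimulated arrays (-2.12 ± 0.18, adjusted p = 8.58e-06). Cmpk2, a mitochondrial nucleotide kinase, read 9.05, 8.91 and 9.28 on the unstimulated arrays and 6.81, 7.24 and 7.16 on the stimulated arrays (-2.01 ± 0.23, adjusted p = 0.000106). The RNA sensor partner Dhx58 (-1.12), Slfn5 (-1.23), Ifit1 (-1.13), Mx2 (-1.04), Oas2 (-1.27) and the ubiquitin-like Isg15 (-0.89) fell as well. The 3 that rose, named after their values were seen, were Eif2ak2 (0.79), the kinase that stops translation on double-stranded RNA, Parp14 (0.74) and Stat2 (0.56). The call of Stat2 was lost in the fit of all 20 arrays (adjusted p = 0.129).

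Promoters of members of both lists held the same motif, so 2 from each list are printed, Gbp2 and Igtp of the GTPases that rose and Ifit1bl1 and Ifit1 of the genes that fell. Each sequence is the 250 bases before the start of the gene from RefSeq (build GRCm38.p6), and capitals mark each interferon response element, searched on both strands as TTTC, any 2 bases and TTTC.
Gbp2 (chr3:142620413-142620662, plus strand): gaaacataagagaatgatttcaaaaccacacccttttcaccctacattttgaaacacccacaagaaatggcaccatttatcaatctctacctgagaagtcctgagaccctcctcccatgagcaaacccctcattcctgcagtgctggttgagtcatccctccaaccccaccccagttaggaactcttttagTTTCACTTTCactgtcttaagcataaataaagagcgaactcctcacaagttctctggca
Igtp (chr11:58199306-58199555, plus strand): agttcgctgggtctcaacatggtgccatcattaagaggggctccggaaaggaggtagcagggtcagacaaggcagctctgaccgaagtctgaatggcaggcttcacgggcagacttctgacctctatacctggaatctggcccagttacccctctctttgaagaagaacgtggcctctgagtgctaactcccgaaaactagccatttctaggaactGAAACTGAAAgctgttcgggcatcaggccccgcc
Ifit1bl1 (chr19:34601969-34602218, minus strand): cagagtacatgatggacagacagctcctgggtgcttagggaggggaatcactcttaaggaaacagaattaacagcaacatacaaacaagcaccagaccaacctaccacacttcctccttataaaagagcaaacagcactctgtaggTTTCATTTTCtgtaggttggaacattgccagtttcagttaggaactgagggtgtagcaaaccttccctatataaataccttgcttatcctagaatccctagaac
Ifit1 (chr19:34640639-34640888, plus strand): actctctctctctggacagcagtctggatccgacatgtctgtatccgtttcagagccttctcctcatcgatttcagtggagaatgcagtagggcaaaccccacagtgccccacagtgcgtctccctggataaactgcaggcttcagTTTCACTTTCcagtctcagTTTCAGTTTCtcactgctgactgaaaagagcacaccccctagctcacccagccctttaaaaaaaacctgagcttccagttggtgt

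The marked element lies 59 bases before the start of Gbp2 and 34 before that of Igtp, 104 before that of Ifit1bl1, and 104 and 85 before that of Ifit1. In windows from 250 bases before to 50 after the start, available for 15691 of the genes, 3.41% of all genes held the element, 5.56% of the genes called higher and 5.71% of those called lower. All 7 called GTPases with a window held it (Gbp2, Gbp3, Gbp7, Igtp, Irgm1, Irgm2 and Tgtp2), as did 11 of 15 type I genes called lower and both of those called higher with a window. The GAS element (TTCCNGGAA), which STAT dimers bind, was found in 1.22% of all windows, in 2.23% of genes called higher and in 0.994% of genes called lower. Among the GTPases that rose, 3 of 7 held a GAS element, namely Gbp7, Irgm2 and Tgtp2. A match describes letters in these windows and no site in use.

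**Figure D3:**
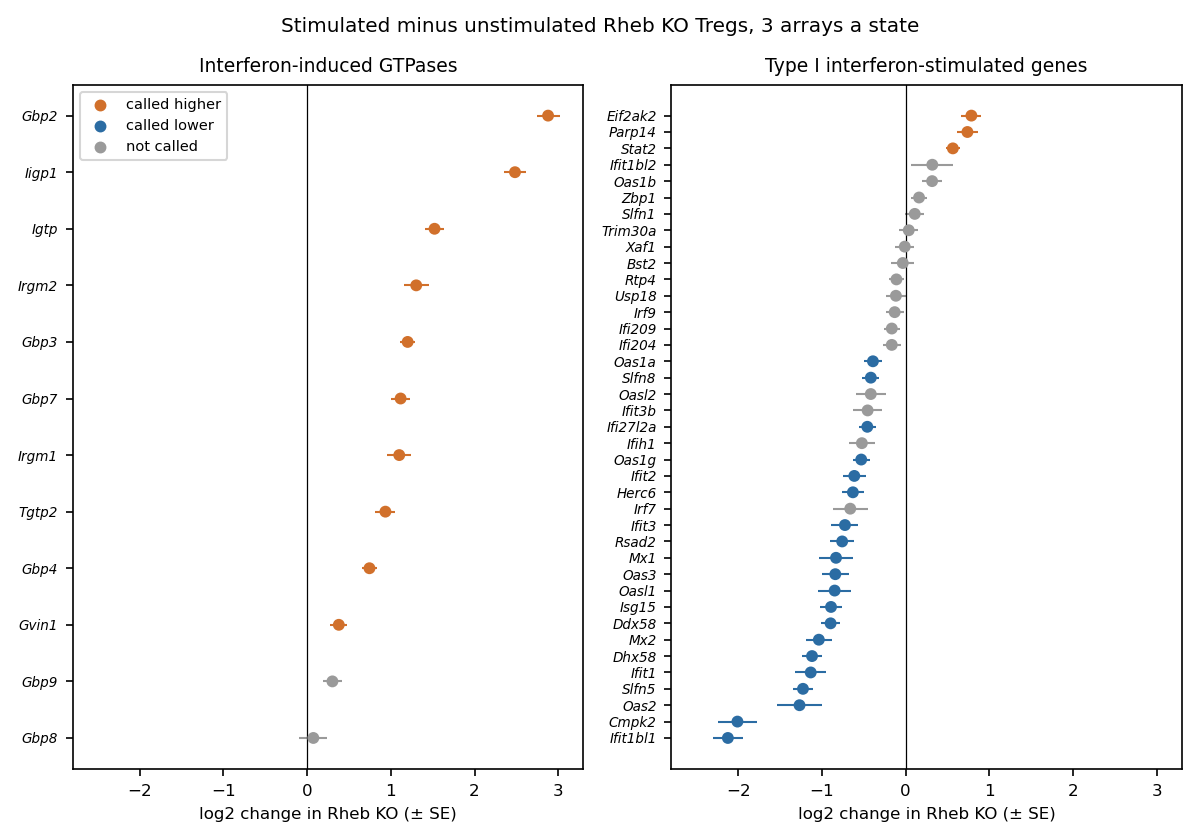
Log2 change between stimulated and unstimulated Rheb KO arrays (± SE) for every measured member of the interferon-induced GTPases (left) and the type I interferon-stimulated genes (right), coloured by call. All 12 GTPases lie above 0 and 10 were called higher, whereas 31 of 39 type I genes lie below 0 and 20 were called lower.

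Of 20 other genes of the interferon-gamma pathway, 7 rose and none fell (median 0.16; 3 rose in the fit of all 20 arrays). They included the receptor chain Ifngr1 (1.08 ± 0.15), the factor Irf8 (1.04 ± 0.13), the inhibitory ligand Cd274 (0.74 ± 0.11), the kinase Jak2 (0.55) and the peptide transporter Tap1 (0.43). Tbx21, which encodes T-bet and drives Ifng in helper cells, read 7.53, 7.53 and 7.54 on the unstimulated arrays and 9.01, 9.32 and 9.15 on the stimulated arrays. Its 3 unstimulated values were almost identical, and the rise was 1.63 ± 0.12 (adjusted p = 3.74e-06).

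Of 14 genes of the AP-1 family, 8 fell, 1 rose and 5 were not called (median -0.65). Fos read 10.22, 10.48 and 10.73 on the unstimulated arrays and 8.11, 8.09 and 8.00 on the stimulated arrays (-2.41 ± 0.14, adjusted p = 5.33e-07). The subunits Jun (-1.16 ± 0.09) and Jund (-0.87 ± 0.09) and the small Maf partners Maff (-1.07) and Mafk (-0.62) fell with it. Fosl2, a Fos relative linked to Treg genes, read 8.69, 8.84 and 9.12 on the unstimulated arrays and 10.75, 10.57 and 10.32 on the stimulated arrays, a rise of 1.66 ± 0.16 (adjusted p = 2.38e-05), so that within the family it moved opposite to Fos and Fosb.

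Immediate early and stress genes that cell dissociation induces fell on a broad front. Of 23 measured, 19 fell and none rose (median -0.88), among them Fos, Fosb and Jun. Ppp1r15a, the phosphatase subunit that restarts translation after stress, read 10.25, 10.26 and 10.46 on the unstimulated arrays and 8.30, 8.23 and 8.28 on the stimulated arrays (-2.05 ± 0.09, adjusted p = 6.95e-08). The RNA decay factor Zfp36 read 9.65, 9.69 and 9.91 on the unstimulated arrays and 8.19, 8.24 and 8.27 on the stimulated arrays (-1.51 ± 0.10, adjusted p = 1.25e-06). For both genes the unstimulated arrays lay well above the stimulated ones. The antiproliferative Btg2 (-1.27), the phosphatase Dusp1 (-1.15), Gadd45b (-1.15) and Nfkbia (-0.88) fell as well, as did the chaperones Dnajb1 (-0.88) and Hspa1a (-0.72), the last near-identical to Hspa1b. The cyclic AMP response element (TGACGTCA) was found in the promoter windows of 3 of 17 of the genes that fell, Btg2, Dusp1 and Ppp1r15a, and in 2.42% of all windows. Among all genes called lower, 2.36% held it. The E-box (CACGTG) was found in 4 of the 17 and in 8.18% of all windows. The serum response element core, the interferon response element and the NF-kB site were each found in 1 of the 17. The AP-1 site (TGANTCA) was found in 0 of the 17 and in 7.27% of all windows. The list mean was 10.18 to 10.36 on the unstimulated and 9.22 to 9.33 on the stimulated arrays. The time between the sort and lysis is stated for neither state in the sources used here.

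Core Treg genes were mostly higher after stimulation. Of 18 core Treg genes 11 rose and 1 fell (median 0.45; 6 rose in the fit of all 20 arrays, and none fell without unstimulated KO array 2, unstimulated KO array 3 or stimulated KO array 3). Socs2, a feedback inhibitor of cytokine signals, read 8.88, 8.79 and 8.89 on the unstimulated arrays and 10.28, 10.29 and 10.10 on the stimulated arrays (1.37 ± 0.13, adjusted p = 1.77e-05). Gpr83, a receptor enriched in Tregs, read 11.31, 11.21 and 11.28 on the unstimulated arrays and 12.46, 12.21 and 12.45 on the stimulated arrays (1.11 ± 0.10, adjusted p = 1.18e-05). Both states were tight and apart. The zinc finger factor Plagl1 (1.18 ± 0.13), the adenosine-making ectoenzyme Nt5e (0.97 ± 0.10), the TGF-beta docking protein Lrrc32 (0.88 ± 0.11) and Tnfrsf18 (0.44 ± 0.09) rose too. Of the Treg markers named above, Ikzf2 was lower but not called (-0.23 ± 0.10, limma, adjusted p = 0.197). Ctla4 (0.36 ± 0.09) and Il2ra (0.76 ± 0.18, from near the negative control median) were called higher. Both calls were lost from the 6 Rheb KO arrays alone and without unstimulated KO array 1 or 2 or stimulated KO array 3. That of Ctla4 was also lost in the fit of all 20 arrays and without stimulated KO array 1 or 2. The list means of the macrophage, dendritic and NK cell markers were lower in the same stimulated arrays.

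Of 26 effector Treg genes, 12 rose and 2 fell (median 0.38; 1 fell without unstimulated KO array 3, stimulated KO array 2 or stimulated KO array 3). Pdcd1, which encodes the inhibitory receptor PD-1, read 8.66, 9.08 and 8.93 on the unstimulated arrays and 11.02, 10.83 and 10.55 on the stimulated arrays (1.91 ± 0.16, adjusted p = 8.58e-06). Itgb8, the integrin chain that frees active TGF-beta, read 8.51, 8.82 and 8.77 on the unstimulated arrays and 10.35, 9.997 and 10.13 on the stimulated arrays (1.46 ± 0.15, adjusted p = 3.58e-05). Neither gene's states overlapped, and 13.5% of all genes were likewise higher without overlap. Further rises were those of Tnfrsf9 (1.45 ± 0.13), Irf4, Myb (1.15 ± 0.12), Tigit (1.02 ± 0.11), the homing receptor Ccr8 (0.85), Icos (0.82) and Lag3 (0.82), while Klrg1, a marker of terminally differentiated Tregs, fell (-0.64). Il10 (0.28) and Gzmb (0.34) were not called (limma, adjusted p = 0.521 and 0.401).

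Inhibitory and costimulatory receptors, which overlap with that list, rose in 11 of 22 cases and fell in 4 (median 0.39; 1 fell in the fit of all 20 arrays). Outside the genes already named, Btla (0.64) and Cd200r1 (0.89) rose and Cd96 (-1.05 ± 0.12) and the costimulatory receptor Cd28 (-0.64) fell. In the TNF receptor family 5 of 26 genes rose and 4 fell (median 0.08), with Tnfrsf9 and Tnfrsf1b (0.74) among the former and the ligand Ltb (-0.67) and adaptor Traf1 (-0.71) among the latter. Its falls numbered 2 without unstimulated KO array 1 or stimulated KO array 2 or 3, and its rises 2 in the fit of all 20 arrays.

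Parts of the antigen receptor pathway fell. Of 34 measured, 14 fell and 4 rose (median -0.29). Dusp2, a phosphatase of activated kinases, read 8.58, 8.70 and 8.68 on the unstimulated arrays and 7.42, 7.44 and 7.27 on the stimulated arrays (-1.28 ± 0.10, adjusted p = 7.42e-06). The adaptor Lat (-0.61), Plcg1 (-0.70), the kinase Prkcq (-0.66), Nfatc2 (-0.81) and the diacylglycerol kinase Dgkz (-0.61) fell by less than 2-fold each. The rises numbered 2 without unstimulated KO array 1 or stimulated KO array 1 or 3 and 1 without unstimulated KO array 2. In the fit of all 20 arrays 6 fell and 2 rose.

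In the NF-kB list 8 of 19 fell and none rose (median -0.25). They included the inhibitors and modifiers of the pathway Tnfaip3 (-1.32 ± 0.13), Nfkbia, Nfkbiz (-0.75) and Nfkbid (-0.66). Of 10 Nr4a and Egr factors, which report recent receptor signals, Egr2 (0.94 ± 0.12) and Nr4a3 (0.50 ± 0.11) rose and Egr1 fell (-0.41 ± 0.10). The list median was -0.02, and without unstimulated KO array 3 none fell. Nr4a1 (0.01 ± 0.11) and Nr4a2 (-0.36 ± 0.12, limma, adjusted p = 0.077) were not called. Of 17 genes of the interleukin 2 receptor and STAT5 pathway 6 rose and 1 fell (median 0.10), including Socs2, Stat3 (0.79) and Stat5b (0.46). The rises numbered 3 without unstimulated KO array 1 or 2, and leaving out any 1 of the 6 KO arrays ended the fall.

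Genes of resting and central T cells fell in 11 of 21 cases and rose in 1 (median -0.33; 7 fell in the fit of all 20 arrays). Id3, an inhibitor of E proteins, read 9.15, 8.95 and 9.28 on the unstimulated arrays and 7.21, 7.09 and 6.96 on the stimulated arrays (-2.04 ± 0.25, adjusted p = 0.000155). Il6ra, the interleukin 6 receptor chain, read 11.25, 11.14 and 11.30 on the unstimulated arrays and 9.86, 9.85 and 9.78 on the stimulated arrays (-1.40 ± 0.09, adjusted p = 9.27e-07). In both, every stimulated array was far below every unstimulated one. The kinase brake Pik3ip1 (-1.17), the Ras activator Rasgrp2 (-1.09), Evl (-0.95) and the interleukin 7 receptor Il7r (-0.73) fell as well, and Btla was the riser.

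Of 30 chemokine receptors, integrins and homing genes, 9 fell and 3 rose (median -0.21). The integrin chains Itgb2 (-0.99 ± 0.09) and Itga4 (-0.89) fell, whereas Itgb8 and Ccr8 rose. The falls numbered 4 without unstimulated KO array 2 and 5 without stimulated KO array 3.

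**Figure D4:**
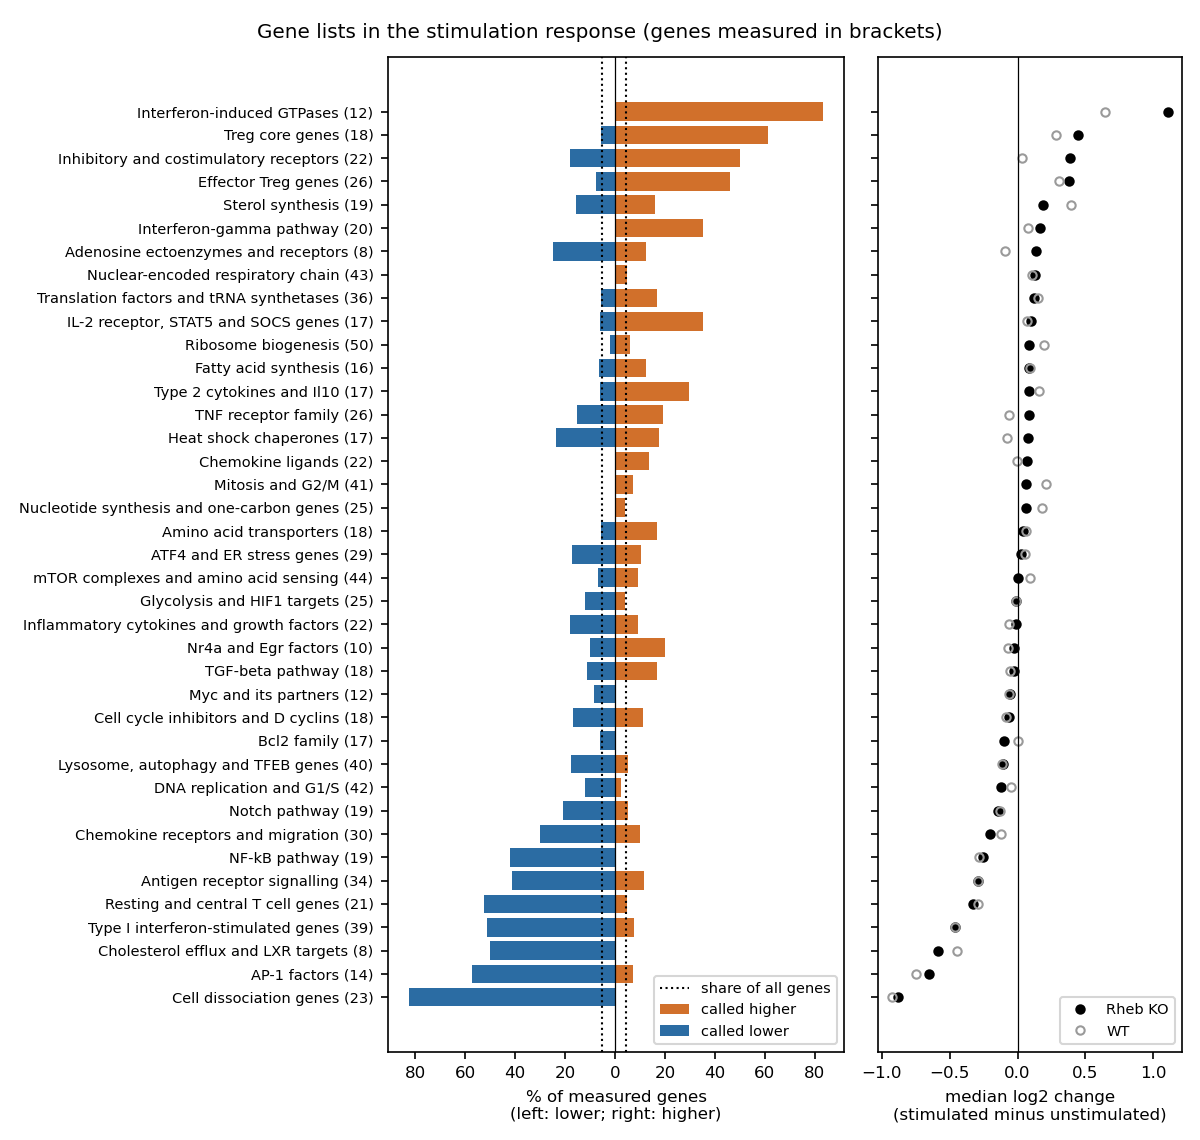
Share of each list's measured genes called higher (orange, to the right) or lower (blue, to the left) in Rheb KO Tregs, with dotted lines at the shares over all genes, 4.55% and 5.19% (left), and the median log2 change of each list in Rheb KO (filled) and WT (open) (right). Lists are ordered by their KO median, from -0.88 for the cell dissociation genes to 1.11 for the interferon-induced GTPases.

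The mTOR list and lists of growth programmes differed in how many members were called, against 9.75% of all genes. The share was 15.9% for the mTOR complexes and amino acid sensing, 16.0% for glycolysis, 22.2% for translation and for amino acid transporters, 31.6% for sterol synthesis, 8.00% for ribosome biogenesis and 4.65% for the respiratory chain. Of 44 genes of the mTOR complexes and amino acid sensing, 4 rose and 3 fell (median 0.01; 2 rose in the fit of all 20 arrays). Rragd, a GTPase that carries the amino acid signal to mTORC1, read 8.61, 8.78 and 8.85 on the unstimulated arrays and 9.83, 9.76 and 9.84 on the stimulated arrays (1.06 ± 0.12, adjusted p = 6.38e-05). Sesn1, a leucine sensor that restrains the complex, read 9.98, 10.18 and 10.37 on the unstimulated arrays and 9.53, 9.28 and 9.08 on the stimulated arrays (-0.88 ± 0.13, adjusted p = 0.000499). The arginine sensor Castor1 fell (-0.73 ± 0.14) and its relative Castor2 rose (0.71 ± 0.14). Glycolysis genes rose in 1 and fell in 3 of 25 cases (median -0.01; 3 rose with a trended and robust variance prior, and 0 rose and 1 fell in the fit of all 20 arrays), led by the kinase Pdk1, which keeps pyruvate out of mitochondria (-1.15 ± 0.14). Of 43 nuclear-encoded respiratory chain genes 40 lay above 0 and 2 were called higher (median 0.13), and no more than 1 was called higher without any 1 of the 12 arrays. With the trended and robust prior 9 were called higher, and 0 in the fit of all 20 arrays.

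In ribosome biogenesis 3 of 50 rose and 1 fell (median 0.09; 6 rose with the 40% dimmest genes left out or with a trended and robust variance prior), with the nucleolar Noc4l (0.62) and Nhp2 (0.63) higher and Ubtf, a factor for ribosomal RNA genes (-0.51), lower. Of 36 translation factors and tRNA synthetases 6 rose and 2 fell (median 0.12). Wars, the tryptophan enzyme that interferon-gamma also induces, read 9.52, 9.50 and 10.19 on the unstimulated arrays and 10.82, 11.07 and 10.66 on the stimulated arrays (1.11 ± 0.17, adjusted p = 0.000938), while Vars (-0.79) and the elongation factor Eef2 (-0.50) fell. The rises in translation numbered 2 without unstimulated KO array 2 or in the fit of all 20 arrays, and 3 without unstimulated KO array 3 or stimulated KO array 1. Of 18 amino acid transporters 3 rose and 1 fell (median 0.04), and the fall was lost without any 1 of the KO arrays other than stimulated array 1 and without stimulated WT array 1 or 2. Slc7a3, a carrier of arginine and lysine, read 7.37, 6.91 and 7.07 on the unstimulated arrays and 8.85, 8.56 and 9.17 on the stimulated arrays (1.74 ± 0.29, adjusted p = 0.00155), and its relatives Slc7a1 (0.74) and Slc7a6 (0.73) rose less. Without unstimulated WT array 2 the falls among transporters numbered 2.

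Sterol synthesis moved in both directions, 3 of 19 higher and 3 lower (median 0.19), with the farnesyl diphosphate synthase Fdps higher (0.85 ± 0.11) and the feedback regulator Insig1 lower (-0.56). The rises numbered 1 without stimulated KO array 3, and the falls 1 without unstimulated KO array 2 or stimulated KO array 1 and 0 in the fit of all 20 arrays. Of 8 genes of cholesterol efflux and LXR targets, 4 fell and none rose (median -0.59). Abca1, the cholesterol exporter, read 8.45, 8.67 and 8.69 on the unstimulated arrays and 6.51, 6.59 and 6.79 on the stimulated arrays (-1.97 ± 0.21, adjusted p = 4.26e-05), with the stimulated values below the negative control median. Abcg1 (-0.87 ± 0.09) and Mylip, which degrades the LDL receptor (-0.81), fell from brighter levels. Macrophages also express these genes, and their markers fell in the same arrays. Elovl6, of the fatty acid list (2 of 16 higher, 1 lower, median 0.08), read 7.26, 8.10 and 8.35 on the unstimulated arrays and 10.28, 10.07 and 10.27 on the stimulated arrays, with unstimulated array 1 the lowest, and Acsl4 rose by 0.51. Of the fatty acid list 18.8% were called, against 9.75% of all genes. The 1 fall in that list was lost without unstimulated KO array 1 or 3, stimulated KO array 1 or 2, unstimulated WT array 1 or 3, or stimulated WT array 1 or 2. The rises numbered 4 with the dim genes left out or with the trended prior, and 1 in the fit of all 20 arrays.

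Of the mitosis genes 7.32% were called and of the DNA replication genes 14.3%, against 9.75% of all genes. Of 41 genes of mitosis 3 rose and none fell (median 0.06), among them the mitotic kinase Cdk1 (0.84 ± 0.11) and the kinesin Kif23 (1.05 ± 0.23). None of the 3 was called in the fit of all 20 arrays. Of 42 genes of DNA replication 5 fell and 1 rose (median -0.12), E2f2, a driver of S phase, reading 8.67, 8.98 and 9.39 on the unstimulated arrays and 7.49, 7.50 and 7.29 on the stimulated arrays (-1.58 ± 0.19, adjusted p = 0.000139) and the sliding clamp Pcna lower (-0.55). The falls numbered 3 without unstimulated KO array 2 or stimulated KO array 2 or 3, 2 without unstimulated KO array 3 or stimulated KO array 1, and 1 in the fit of all 20 arrays. Among 18 cell cycle inhibitors and G1 regulators 2 rose and 3 fell (median -0.06). Cdkn1a, which encodes the inhibitor p21, read 9.77, 9.86 and 9.87 on the unstimulated arrays and 11.35, 11.25 and 10.98 on the stimulated arrays (1.36 ± 0.13, adjusted p = 1.77e-05), whereas the inhibitor Cdkn2d (-0.93) and the pocket protein Rbl2 (-0.51) fell. Of 12 genes around Myc, 1 was lower, and of 25 nucleotide synthesis genes 1 was higher, a number that became 2 without unstimulated WT array 1 or 3 or unstimulated KO array 3, and 1 nucleotide gene was lower without unstimulated WT array 3.

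Protein folding genes were mixed. Of 29 genes of the ATF4 and endoplasmic reticulum stress responses 3 rose and 5 fell (median 0.02). The chaperone partner Dnajb9 read 11.39, 11.53 and 11.56 on the unstimulated arrays and 9.73, 10.07 and 10.03 on the stimulated arrays (-1.55 ± 0.14, adjusted p = 1.27e-05) and Hspa5, the main chaperone of that compartment, fell (-0.69), while the factor Xbp1 rose (0.75 ± 0.10). The falls numbered 3 without unstimulated KO array 2 or stimulated KO array 1 or 2, and 1 in the fit of all 20 arrays. Among 17 heat shock chaperones 4 fell, led by Dnajb4 (-1.88 ± 0.17), and 3 rose (median 0.08), but the rises numbered 1 without unstimulated KO array 3 or stimulated KO array 3 and 0 without stimulated KO array 1 or 2. Of 40 lysosome and autophagy genes 7 fell and 2 rose (median -0.11), with Gla lowest and the membrane protein Lamp2 higher (0.69 ± 0.08). The falls there numbered 4 without unstimulated KO array 1 and 1 in the fit of all 20 arrays, and the rises 1 without any 1 of the KO arrays other than unstimulated array 3.

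In the Notch list 4 of 19 fell and 1 rose (median -0.15), Dtx1 and its relative Dtx3 (-0.46) being lower and the DNA-binding partner Rbpj higher (1.01 ± 0.14), and the falls numbered 2 without unstimulated KO array 2 or stimulated KO array 1 or 2. Of 18 TGF-beta genes, 3 rose (Itgb8, Lrrc32 and the repressor Skil, 0.51) and 2 fell, the signal transducer Smad3 (-0.68 ± 0.11) and the receptor Tgfbr2 (-0.60). In the fit of all 20 arrays 1 rose and 1 fell. Of 8 adenosine genes Nt5e rose and Dpp4 (-1.12 ± 0.22) and the ATP receptor P2rx7 (-0.65) fell. In the Bcl2 family 1 of 17 was called lower, none without unstimulated KO array 2 or 3 or stimulated KO array 2 or 3, and 2 without stimulated KO array 1. The 1 call was 5.88% of the family, against 9.75% of all genes.

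The markers of other cells that fell were led by macrophage genes. C1qa, a complement component, read 8.82, 8.68 and 8.66 on the unstimulated arrays and 6.61, 6.39 and 6.26 on the stimulated arrays, and Csf1r, the receptor for the macrophage growth factor, read 8.62, 8.78 and 8.84 on the unstimulated arrays and 6.73, 6.26 and 6.78 on the stimulated arrays. Aif1 read 7.52, 7.40 and 7.18 on the unstimulated arrays and 4.58, 4.79 and 4.53 on the stimulated arrays. In all of these genes, every stimulated value lay below the negative control median of its array. With the dim genes left out 7 macrophage markers were called lower. Of 13 dendritic cell markers 5 fell, including the antigen-presenting H2-Eb1 (-1.55 ± 0.14), H2-Ab1 (-1.36 ± 0.15) and H2-Aa (-0.97), and 3 without stimulated KO array 3. Of 12 NK cell markers 3 fell, led by the adaptor Tyrobp (-1.23 ± 0.18), and of 12 B cell markers 2 fell (1 without any 1 of the KO arrays other than unstimulated array 3). Ncr1, Klrb1c, Klrd1 and Eomes of NK cells were not called. Neither were Flt3, Zbtb46 and Xcr1 of dendritic cells, whose Itgax was called lower, nor Cd79a, Cd79b and Ms4a1 of B cells. The share called was 25% for NK cell and 16.7% for B cell markers, against 9.75% of all genes. Of 7 conventional CD4 T cell markers 1 rose and 3 fell, and none rose without unstimulated KO array 2 or 3 or stimulated KO array 2. Of 8 CD8 T cell markers 2 fell (0 in the fit of all 20 arrays), and of 11 stromal and endothelial markers only Pecam1 fell (-1.03 ± 0.10), from a bright 10.51 to 10.77. These calls were 25% of the CD8 and 9.09% of the stromal and endothelial markers, against 9.75% of all genes. None of the 11 granulocyte and 7 red cell and platelet markers was called.

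A few genes crossed part of the signal range. Between states, 9 called genes went from below the negative control median on all 3 arrays to above the array median on all 3, and 14 went the opposite way. With Il4, Nexn and Fsd1l, the former included the inhibitory receptor relative Cd200r4 (1.89 ± 0.26), the cytoskeletal Ermn (1.65 ± 0.17) and Mybl1 (1.64 ± 0.22), a relative of Myb. With Gla, C1qa, Csf1r and Abca1, the latter included Cd52, a surface glycopeptide of lymphocytes and myeloid cells (-1.95 ± 0.20), and the lectin-like receptor Klrb1f (-1.78 ± 0.19). Fold changes of such genes are of uncertain size, since one state gave no signal above background.

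Set beside the response of WT Tregs, measured on other arrays, most of these changes had the same sign. In WT 1828 genes were called (9.37%), 875 higher (4.49%) and 953 lower (4.89%). Of the 888 genes called higher in KO, 486 were also called higher in WT (54.7% of the KO and 55.5% of the WT calls), and 859 had a WT change above 0. Among the 1013 called lower, 637 were also called lower in WT (62.9% of the KO and 66.8% of the WT calls), and 970 had a WT change below 0. No gene called higher in KO was called lower in WT. The reverse held for Cldn10, Nsdhl and Tmem26, named after their values were seen, with differences of -0.996, -0.88 and -1.38 and adjusted p of 0.243, 0.243 and 0.21. The KO calls of Cldn10 and Nsdhl were not stable. That of Cldn10 was lost without any 1 of the 6 KO arrays, without unstimulated WT array 1 or stimulated WT array 3, with a second quantile normalization and with arrays centred on their medians (adjusted p 0.0513 to 0.149). That of Nsdhl was lost without unstimulated KO array 2 or 3 or stimulated KO array 1 or 3 (0.0611 to 0.097). All 3 KO calls were lost in the fit of all 20 arrays (0.178, 0.46 and 0.0604).

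The difference between the KO and WT responses was called for none of 19505 genes (0%; limma), although 1207 had an unadjusted p below 0.05. The smallest adjusted p was that of Pik3ap1, an adaptor for phosphoinositide 3-kinase, which read 8.70, 8.37 and 8.30 on the unstimulated and 7.12, 7.20 and 6.96 on the stimulated KO arrays. Its change was -1.37 in KO and -0.15 in WT (difference -1.21 ± 0.16, SE, adjusted p = 0.0704). The difference of Pik3ap1 passed the threshold with arrays centred on their medians (adjusted p = 0.0467), with the dim genes left out (0.0383) and with the trended and robust variance prior (0.0246). That prior called 7 genes, among them Gbp2 (0.048), Gbp3 (0.0246) and Tmem26 (0.048), and the fit of all 20 arrays called Il3 (0.0477). Among the genes described here, the largest difference was that of Il3, which changed by 3.47 in KO and 0.52 in WT (difference 2.95 ± 0.50, SE, adjusted p = 0.21). Csf2 changed by 1.23 and 0.28 (0.96 ± 0.16, adjusted p = 0.21). For Ccl1 the changes were 2.94 and 1.04 (1.90 ± 0.45, adjusted p = 0.461) and for Cxcl9 1.19 and -0.50 (1.70 ± 0.34, adjusted p = 0.268). Slc7a3 changed by 1.74 and 0.10 (1.65 ± 0.41, adjusted p = 0.539). Gbp2 changed by 2.88 and 1.79 (1.08 ± 0.20, adjusted p = 0.243), and the median over the 12 GTPases was 1.11 in KO and 0.65 in WT. Of the macrophage markers, C1qa changed by -2.30 in KO and -0.83 in WT (-1.48 ± 0.27, adjusted p = 0.243), and the medians were -0.91 and -0.54. Castor2 changed by 0.71 in KO and 1.71 in WT (-0.998 ± 0.19, adjusted p = 0.243). None of these differences passed the threshold in the fit of 12 arrays, which does not show that the responses are alike.

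**Figure D5:**
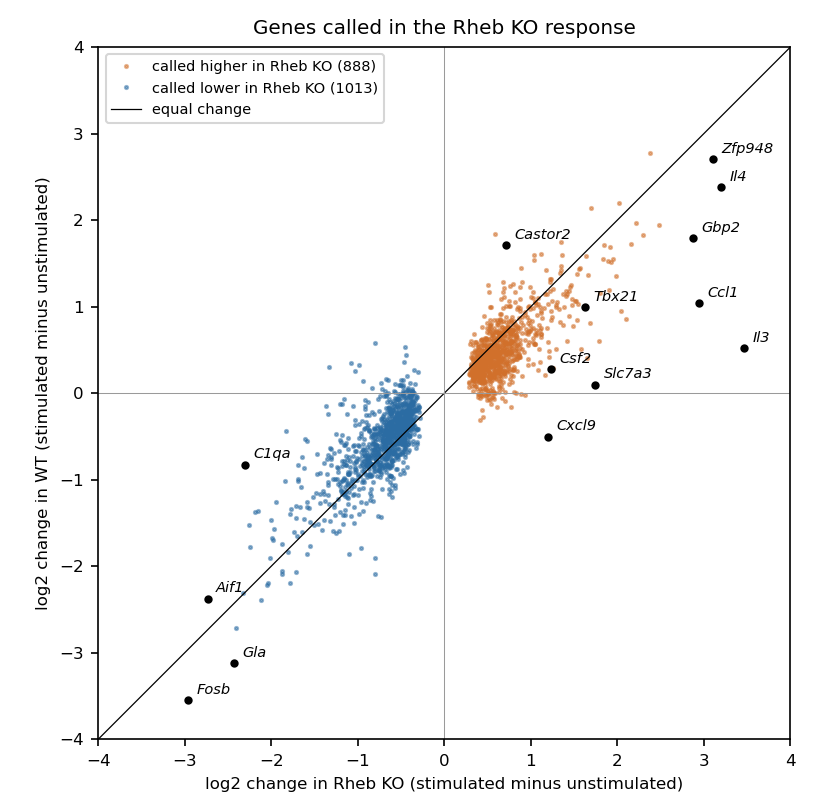
Log2 change on stimulation in WT (vertical) against Rheb KO (horizontal) for the 1901 genes called in the KO response (orange, called higher; blue, called lower; black, 14 genes with names; line, equal change). Of the genes called higher 859 of 888 lie above 0 in WT, and of those called lower 970 of 1013 lie below 0, while Il3, Ccl1, Cxcl9 and Slc7a3 lie far below the line of equal change.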

How the data were processed

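Expression was measured on Clariom S mouse arrays. The deposited values are log2 signals, made by the authors with RMA in Affymetrix Expression Console 1.1, per the submitters' processing notes; background correction and scaling before deposit could therefore not be varied. Of 28846 probe sets, 19572 had 1 gene symbol, and for 55 genes with several the probe set with the highest mean was used, giving 19505 genes. Foxp3 was not analysed here. The 12 arrays of the Rheb experiment, 3 in each of 4 groups, were fitted with limma 3.58.1 in R 4.3.3, 1 mean per group and 1 shared spread per gene, and p-values were Benjamini-Hochberg adjusted over all genes. Errors are limma standard errors. A gene was called at an adjusted p below 0.05. The number of arrays limits the precision, and genes below the median of 5222 negative control probe sets have changes of uncertain size. The fitting script was tested on simulated data.

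Members and gene lists were chosen with earlier results of these data known, and some genes lie in several lists. Genes named were Rheb and Rhebl1, the 12 largest rises and 12 largest falls with states that did not overlap, 4 defining and up to 6 further called members of each list, and up to 6 genes in each direction that crossed the signal range. Genes with only a provisional symbol (Gm, Rik and the like) were not eligible for the largest changes and the crossing genes. Alternatives were a second quantile normalization, centring of arrays, a filter on the 40% dimmest genes, another variance prior, other sets of arrays, a replicate block, the mean of probe sets, and leaving out each array.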

Additional observations from a re-analysis of the deposited data

How the results depend on the processing

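Against 1901 called genes, the alternatives gave 1803 with arrays centred on their medians, 2331 with a trended and robust variance prior and 1923 from the 6 Rheb KO arrays alone. The fit of all 20 arrays gave 920 (412 higher, 508 lower), of which 914 were also among the 1901. At least 2-fold changes numbered 305 there, against 311. Leaving out each of the 12 arrays in turn gave 1356 to 2011 calls, 597 to 964 higher and 726 to 1059 lower, and 294 to 322 changed at least 2-fold. The difference between the KO and WT responses, called for no gene, was called for 1 gene with centred arrays, 1 with the 40% dimmest genes left out, 7 with the trended and robust prior and 1 in the fit of all 20 arrays, and for 0 to 0 when each array was left out. Whether samples with the same replicate number belong together is not stated in the sources used here. Deviations of same-numbered unstimulated and stimulated KO arrays correlated at -0.006, 0.011 and -0.074, which cannot decide it with 3 arrays a state. With the number as a replicate block, 1685 genes were called (767 higher, 918 lower), and 0 for the difference. With 3 arrays a state and an unknown number of mice, small changes and dim genes are the least certain, and genes of similar sequence may share probes. The counts of AP-1, cell dissociation, NF-kB, GTPase, type I interferon, and cholesterol efflux and LXR target genes stayed within 1.5 times under every alternative tried. Changes near 0 turned sign when single arrays were left out, all of genes not called. The Rhebl1 log2 change ranged from -0.0747 to 0.0685, the Il2 log2 change from -0.0596 to 0.139, the S100a8 log2 change from -0.224 to 0.148, the S100a9 log2 change from -0.0785 to 0.166 and the Xcr1 log2 change from -0.274 to 0.0161. List counts moved by over 1.5 times in further settings. With the dim genes left out, 1 inflammatory gene rose and 2 fell, 1 chemokine ligand, 2 type 2 and 2 Nr4a or Egr genes fell, 4 cell cycle inhibitors rose and 5 fell, 3 nucleotide genes rose and 1 fell, 3 dendritic, 1 adenosine and 0 B cell genes fell, and 2 glycolysis genes rose. With the trended and robust prior, 4 TGF-beta genes, 5 cell cycle inhibitors, 2 Nr4a or Egr genes, 2 transporters and 1 chemokine ligand fell, and 3 nucleotide, 1 Myc and 1 Bcl2 gene rose. From the 6 KO arrays alone, 4 TGF-beta and 6 NK cell genes fell. In the fit of all 20 arrays, 1 Notch gene fell, and 0 heat shock and 0 nucleotide genes rose.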
